A study of Mus musculus with 12 samples.

Results

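The genes described here encode the subunits of the proteasome, the assembly factors of its regulatory particle and its activators, in the livers of mice that lacked p62, Tsc1 or both in hepatocytes. They were chosen by symbol: Psma, Psmb, Psmc, Psmd or Psme followed by a number, without the immunoproteasome genes Psmb8, Psmb9 and Psmb10. Of 23420 genes in each table of counts, 40 symbols matched, and the 39 with a mean of at least 10 counts over the 12 libraries were kept. The thymus subunit gene Psmb11 had 0 counts and was dropped. The 39 are 8 genes of the alpha ring, 7 of the beta ring, 6 ATPases and 3 other subunits of the base, 8 subunits of the lid, 3 assembly factors and 4 activators. The 15 ring genes make up the core and the 17 base and lid genes the regulatory particle.

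Poly(A) RNA of liver was sequenced in 12 libraries, 3 in each of 4 groups of mice on the C57BL/6 background. Tsc1/p62Δhep mice carried floxed Tsc1 and floxed p62 (Sqstm1) alleles with a Cre transgene, and both genes were deleted in hepatocytes. Tsc1Δhep mice carried floxed Tsc1 with Cre, p62Δhep mice carried floxed p62 with Cre, and p62F/F mice carried floxed p62 without Cre. The titles of the Tsc1/p62Δhep and p62Δhep samples name AlbCre, a Cre driven by the albumin promoter. Those of the Tsc1Δhep samples say only Cre positive, with deletion in hepatocytes. The albumin promoter acts in hepatocytes and, during development, in the hepatoblasts from which hepatocytes and bile duct cells arise. In which other liver cells the genes were deleted was not measured. The sources used here do not give the age, sex or diet of each mouse. Nor do they state whether a liver piece held tumour tissue, although the name of the deposited Tsc1-deleted counts holds the word NORMAL, unexplained. Nor do they say that each library came from an animal of its own, so the p-values cover the spread between the libraries at hand, which could be technical. The first 2 groups shared 1 count table and the other 2 another, so that Tsc1 genotype and table cannot be told apart, and p62Δhep and p62F/F also differed in Cre.

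The proteasome degrades proteins tagged with ubiquitin. Its core is a barrel of stacked alpha and beta rings, with the cutting sites of Psmb5 (chymotrypsin-like), Psmb6 (caspase-like) and Psmb7 (trypsin-like) inside, and the regulatory particle caps the barrel: the ATPases of the base unfold the substrate and the lid removes its ubiquitin. In mammalian cells the transcription factor NRF1, encoded by Nfe2l1, raises proteasome genes together when proteasome activity runs short, through antioxidant response elements (AREs) in their promoters. NRF2, encoded by Nfe2l2, binds the same kind of element, and its inhibitor KEAP1 is bound by p62. The protein p62 also carries ubiquitin-tagged cargo to autophagy, the other large route of protein breakdown in hepatocytes, and TSC1 restrains the growth kinase mTORC1, which is known to act on both routes.

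Upstream sequences are printed for the 3 members that passed the test between Tsc1/p62Δhep and Tsc1Δhep, Psmd8, Psmd14 and Psmc1, and for the catalytic subunits Psmb5 and Psmb6, whose promoters hold an ARE core next to the start. They are RefSeq promoter windows on GRCm38.p6, cut to the bases upstream of the gene's outermost annotated start, 5′ to 3′ on the gene's own strand, at chr7:29180702-29180923 (minus strand) for Psmd8, chr2:61711444-61711693 (plus) for Psmd14, chr12:100109952-100110153 (plus) for Psmc1, chr14:54618023-54618245 (minus) for Psmb5 and chr11:70525107-70525356 (plus) for Psmb6. Capitals mark the ARE core TGACNNNGC and the CCAAT box, searched on both strands.
Psmd8: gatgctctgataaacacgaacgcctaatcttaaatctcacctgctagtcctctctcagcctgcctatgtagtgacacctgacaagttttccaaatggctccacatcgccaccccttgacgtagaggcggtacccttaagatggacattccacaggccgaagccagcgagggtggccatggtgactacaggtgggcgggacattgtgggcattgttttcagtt
Psmd14: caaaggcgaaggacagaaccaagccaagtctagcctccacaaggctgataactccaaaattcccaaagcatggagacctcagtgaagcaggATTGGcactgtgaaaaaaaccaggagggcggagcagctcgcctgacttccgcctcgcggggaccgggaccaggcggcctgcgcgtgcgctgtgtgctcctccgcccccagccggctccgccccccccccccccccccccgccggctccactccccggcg
Psmc1: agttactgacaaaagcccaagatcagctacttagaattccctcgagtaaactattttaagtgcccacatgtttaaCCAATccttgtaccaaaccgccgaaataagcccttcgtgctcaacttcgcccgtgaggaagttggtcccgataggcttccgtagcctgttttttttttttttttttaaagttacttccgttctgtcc
Psmb5: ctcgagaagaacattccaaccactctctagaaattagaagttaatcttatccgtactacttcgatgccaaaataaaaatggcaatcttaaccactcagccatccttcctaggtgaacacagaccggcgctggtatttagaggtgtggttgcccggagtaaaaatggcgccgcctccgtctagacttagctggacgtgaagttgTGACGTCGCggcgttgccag
Psmb6: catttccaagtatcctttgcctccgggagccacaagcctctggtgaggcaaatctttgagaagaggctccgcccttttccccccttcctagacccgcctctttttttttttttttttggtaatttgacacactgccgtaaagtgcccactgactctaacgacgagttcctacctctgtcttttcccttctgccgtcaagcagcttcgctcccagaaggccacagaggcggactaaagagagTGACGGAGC
The ARE core began 47 bases before the RefSeq start of Psmb5 and 9 bases before that of Psmb6. The Psmc1 window held a CCAAT box 175 bases before the start, and the Psmd8 window held neither motif. The Psmd14 window held a CCAAT box on the reverse strand 159 bases before the start. It held others 4 (forward strand) and 7 bases (reverse strand) after the start, in the part not printed. Windows of 250 bases before to 50 after the start were found for 32 of the 39 members. The ARE core was in 6 of the 32 (18.8%), Psmb5, Psmb6, Psmc6, Psmd9, Psmd12 and Psme4, and in 14% of the windows of 27025 genes. The CCAAT box was in 12 of the 32 (37.5%), against 41.1% of all windows. A match is a run of letters in this window and does not show that a factor binds there.

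Total counts were 15792048 to 33377247 per library, of which the 39 members held 56500 to 180339. Sqstm1 stood at 12.92 to 16.96 CPM (counts scaled to the library total) in Tsc1/p62Δhep, 872 to 1284 CPM in Tsc1Δhep, 11.57 to 19.15 CPM in p62Δhep and 292 to 378 CPM in p62F/F. Tsc1 stood at 8.09 to 12.3 CPM in Tsc1/p62Δhep, 6.12, 5.96 and 13.3 CPM in Tsc1Δhep libraries 1, 2 and 3, 25.2 to 43.0 CPM in p62Δhep and 26.1 to 35.7 CPM in p62F/F. Both genes were thus lower in every library labelled as deleted than in any library with the gene, and library 3 of Tsc1Δhep had the highest Tsc1 of the 6 libraries labelled as Tsc1-deleted. The summed hepatocyte markers (6 of 6 found, Alb and Ttr among them) were at 65020 to 89280 CPM in Tsc1/p62Δhep, 28700 to 63640 CPM in Tsc1Δhep, 34050 to 42660 CPM in p62Δhep and 35120 to 74220 CPM in p62F/F, with no marker at 0 in all libraries of a group. The Tsc1Δhep libraries stood apart from each other and from the rest, as the next paragraphs show. These are bulk samples, in which fewer cells of a type and less RNA per cell cannot be told apart.

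**Figure D1:**
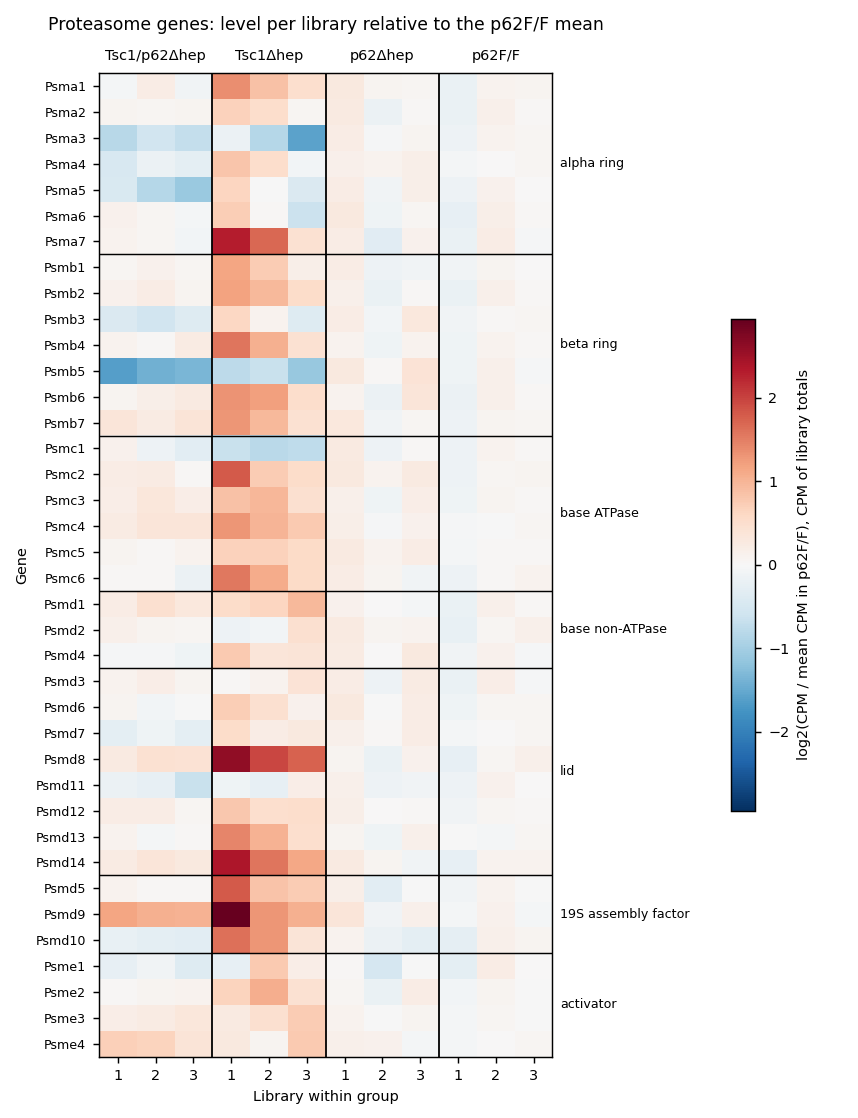
Level of 38 proteasome genes in each library (columns, grouped by genotype), as log2 of its CPM of library totals over the gene's mean in p62F/F. Rows are grouped by class and Psma8, at very low counts, is left out. Red (higher) is densest in Tsc1Δhep libraries 1 and 2, whereas Psmb5 and Psma3 are blue (lower) in all 6 libraries without Tsc1.

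Reads were set per kilobase of transcript, with the median length of a gene's annotated protein-coding transcripts. Members of the core and of the regulatory particle then stood at levels of the same order in p62F/F. The values depend on the lengths used, such as 2911 bases for Psma2, whose level in p62F/F was 70.4 CPM. The levels of 14 core genes, without the testis form Psma8, ran from 24.2 CPM per kb (Psma2) to 116 CPM per kb (Psma6) with a median of 86.6, and those of the 17 regulatory genes from 40.9 (Psmd14) to 76.3 CPM per kb (Psmc1) with a median of 54.0. In p62Δhep the medians were 91.9 CPM per kb for the core and 59.5 for the regulatory particle. In Tsc1/p62Δhep they were 73.6 CPM per kb for the core and 57.4 for the regulatory particle. In Tsc1Δhep they were 121 and 88.6 CPM per kb. The spread of levels between subunits was also widest there. From lowest to highest, the regulatory genes spanned a ratio of 2.44 in Tsc1/p62Δhep, 6.80 in Tsc1Δhep, 1.85 in p62Δhep and 1.87 in p62F/F, and in Tsc1Δhep the top of that range was Psmd8, at 291 CPM per kb.

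Summed over all 39 members, the level was 3578, 3635 and 3433 CPM of library totals in Tsc1/p62Δhep, 7006, 5403 and 4544 CPM in Tsc1Δhep, 3894, 3258 and 3644 CPM in p62Δhep and 3072, 3615 and 3492 CPM in p62F/F. All 3 Tsc1Δhep libraries lay above the other 9, which overlapped. The core summed to 1187 ± 14.2 CPM in Tsc1/p62Δhep, 2018 ± 708 CPM in Tsc1Δhep, 1345 ± 146 CPM in p62Δhep and 1265 ± 117 CPM in p62F/F (SD, n = 3 each). The regulatory particle summed to 1812 ± 63.0 CPM in Tsc1/p62Δhep, 2902 ± 491 CPM in Tsc1Δhep, 1807 ± 141 CPM in p62Δhep and 1686 ± 138 CPM in p62F/F (SD, n = 3 each). The ratio of core to regulatory sums was 0.6445, 0.6457 and 0.6764 in Tsc1/p62Δhep, 0.7867, 0.7504 and 0.5126 in Tsc1Δhep, 0.7575, 0.7145 and 0.7579 in p62Δhep and 0.7453, 0.7708 and 0.7337 in p62F/F. In Tsc1Δhep library 3 the core was thus low relative to the regulatory particle, and in Tsc1/p62Δhep all 3 ratios lay below the 6 of p62Δhep and p62F/F.

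**Figure D2:**
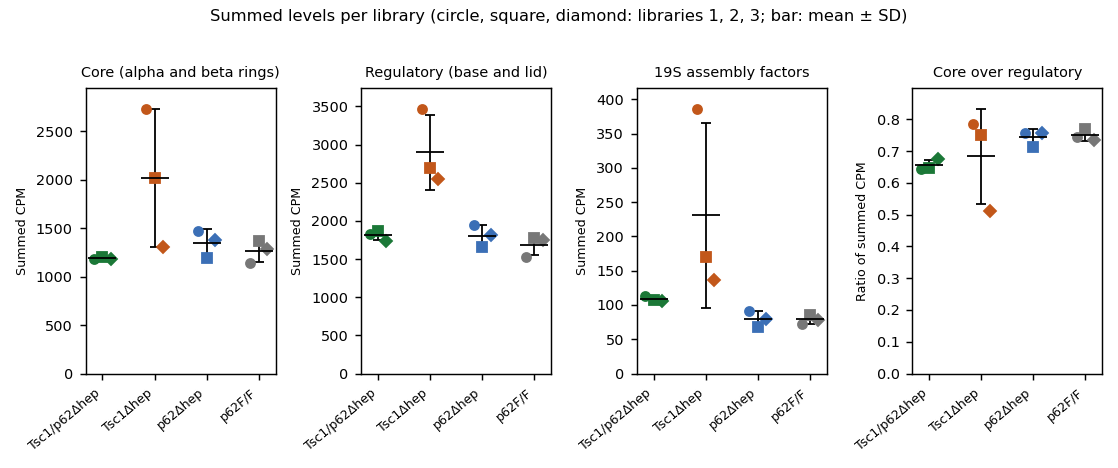
Summed CPM of library totals of the core, the regulatory particle and the assembly factors, and the ratio of the core sum to the regulatory sum, for each library (circle, square and diamond are libraries 1, 2 and 3; bar and whiskers are mean ± SD of 3). The Tsc1Δhep libraries are spread out, with core sums from 1309 to 2725 CPM, whereas the Tsc1/p62Δhep libraries lie between 1178 and 1203 CPM.

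The comparison of Tsc1/p62Δhep with Tsc1Δhep asked what loss of p62 did to these genes in livers whose hepatocytes also lacked Tsc1. Most members had lower levels in Tsc1/p62Δhep, but few differed beyond the spread between libraries. Psmd8 and Psmd14 of the lid fell and the base ATPase Psmc1 rose, and no gene of the core passed the test. Of the 39 members 38 could be tested, and 3 of them (7.89%) passed the quasi-likelihood test of edgeR at a Benjamini-Hochberg adjusted p below 0.05, 1 higher and 2 lower. Among all genes tested 24.2% passed, 9.25% higher and 14.9% lower. The members' median log2 fold change was -0.29, with 8 positive and 30 negative values, and that of all genes was -0.05.

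Psmd8 encodes a lid subunit whose counterpart in yeast is the last to join the lid as it assembles. Its level, in CPM scaled by TMM (trimmed mean of M-values, edgeR's scaling within the table), was 133, 153 and 155 in Tsc1/p62Δhep and 573.5, 352 and 275 in Tsc1Δhep. The groups did not overlap. The log2 fold change was -1.45 ± 0.31 (SE; edgeR adjusted p 0.0149), a 2.72-fold lower mean. The call was lost without Tsc1/p62Δhep library 1 (adjusted p 0.0810), library 2 (0.0708) or library 3 (0.0533) and held without each Tsc1Δhep library in turn. The log2 fold changes in the first 3 of these fits, -1.37, -1.46 and -1.47, were close to that of all libraries, and these fits called 8.51%, 9.05% and 14.5% of all genes.

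Psmd14 encodes the enzyme of the lid that cuts ubiquitin off the substrate. It stood at 83.57, 89.53 and 88.35 CPM in Tsc1/p62Δhep and at 310, 170.2 and 115 CPM in Tsc1Δhep. The 3 Tsc1/p62Δhep values were close together and below all Tsc1Δhep values, which spanned a wide range. The log2 fold change was -1.19 ± 0.36 (SE; edgeR adjusted p 0.0484). In the same 3 fits, without Tsc1/p62Δhep libraries 1, 2 and 3, the log2 fold change stayed at -1.14, -1.20 and -1.18 but the call was lost (adjusted p 0.163, 0.147 and 0.125). It was also lost without Tsc1Δhep library 1 (-0.70, adjusted p 0.0605) and library 2 (-1.27, 0.0931), and held without Tsc1Δhep library 3 (-1.44, 0.00677). The call was lost too with the size factors of DESeq2 in edgeR (0.0501), with limma on log2(CPM + 1) (0.0584) and with no filter on low counts (0.0533).

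Psmc1 encodes an ATPase of the base whose counterpart in yeast helps to open the gate of the core. It stood at 148, 122 and 114 CPM in Tsc1/p62Δhep and at 72.7, 63.6 and 59.6 CPM in Tsc1Δhep, with no overlap and a narrow spread in both groups. The log2 fold change was 0.97 ± 0.21 (SE; edgeR adjusted p 0.0146), a 1.96-fold higher mean. Without Tsc1/p62Δhep library 1 (adjusted p 0.0812), Tsc1/p62Δhep library 2 (0.0657) or Tsc1Δhep library 2 (0.0581) the call was lost, at log2 fold changes of 0.87, 1.01 and 0.96. Psmc1 was the ATPase that moved against the rest of its ring: the other 5 ATPases had log2 fold changes of -0.84 to -0.22 and did not pass by edgeR. Psmc6 passed by DESeq2 (adjusted p 0.0496), which called 32.9% of all genes.

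**Figure D3:**
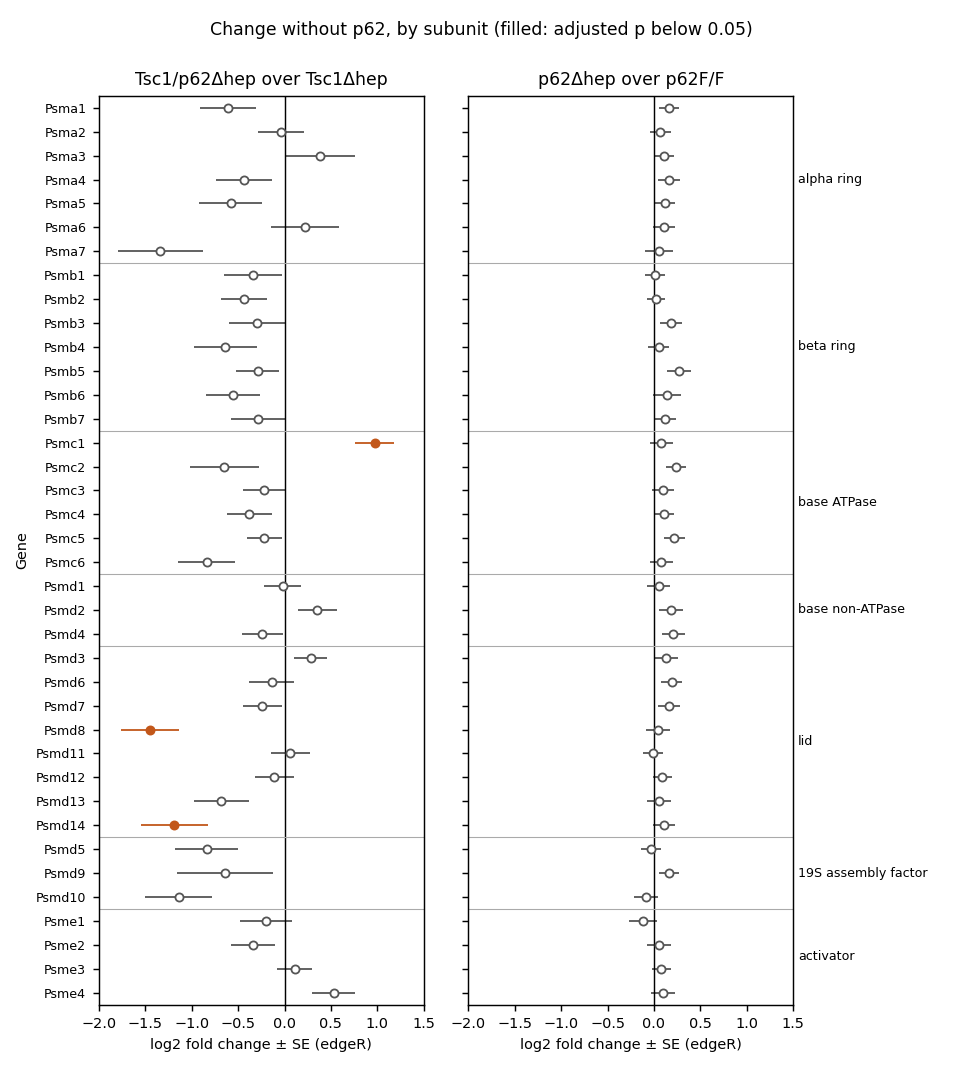
Log2 fold change ± SE (edgeR) of 38 proteasome genes, grouped by class, for Tsc1/p62Δhep over Tsc1Δhep (left) and p62Δhep over p62F/F (right). Filled points have an adjusted p below 0.05: Psmc1, Psmd8 and Psmd14 on the left and none on the right, where all points lie between -0.12 and 0.27.

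Other members had log2 fold changes of similar or larger size without passing. Psma7, an alpha ring subunit, stood at 106, 103.5 and 96.1 CPM in Tsc1/p62Δhep and at 415, 259 and 99.7 CPM in Tsc1Δhep. Library 3 of Tsc1Δhep lay among the Tsc1/p62Δhep values while libraries 1 and 2 lay far above them (log2 fold change -1.34 ± 0.46 SE, edgeR adjusted p 0.0708). Psmd10, the assembly factor also known as gankyrin and as an oncoprotein of liver cancer, stood at 15.05, 14.35 and 14.67 CPM in Tsc1/p62Δhep and at 45.6, 34.8 and 16.8 CPM in Tsc1Δhep. Its groups did not overlap, but Tsc1Δhep library 3 came close to the others (-1.14 ± 0.36 SE, edgeR adjusted p 0.0529). The base ATPase gene Psmc6 had -0.84 ± 0.31 (adjusted p 0.0832) and the assembly factor gene Psmd5 -0.84 ± 0.34 (adjusted p 0.109), both without overlap.

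The catalytic subunits did not pass. Psmb5 stood at 25.9, 29.7 and 32.3 CPM in Tsc1/p62Δhep and at 39.1, 41.1 and 27.1 CPM in Tsc1Δhep (log2 fold change -0.29 ± 0.23 SE, edgeR adjusted p 0.377). Psmb6 stood at 96.2, 102.0 and 113 CPM in Tsc1/p62Δhep and at 194, 170.2 and 95.65 CPM in Tsc1Δhep (-0.56 ± 0.29, adjusted p 0.183). Psmb7 stood at 163, 151.5 and 173 CPM in Tsc1/p62Δhep and at 265, 201 and 128 CPM in Tsc1Δhep (-0.29 ± 0.29, adjusted p 0.480). For all 3 genes Tsc1Δhep library 3 was the lowest of its group and the groups overlapped. All 7 beta ring genes had negative values, from -0.64 to -0.29, and 5 of the 7 alpha ring genes tested did. With the trend of each library by GC content and length removed, as described below, Psmb3 (0.20), Psmb5 (0.16), Psmb7 (0.06) and Psma2 (0.14) had positive values.

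Members with higher levels in Tsc1/p62Δhep included Psme4, the nuclear activator PA200, at 276, 270.1 and 228 CPM, against 177, 146 and 213 CPM in Tsc1Δhep. The groups did not overlap but the difference did not pass (log2 fold change 0.53 ± 0.23 SE, edgeR adjusted p 0.125). Psmd2, a large scaffold subunit of the base, stood at 251, 239 and 243 CPM in Tsc1/p62Δhep and at 172.3, 171.8 and 229.6 CPM in Tsc1Δhep (0.35 ± 0.21, adjusted p 0.252), and its value was -0.01 with library totals in place of TMM. By class, the median log2 fold change was -0.44 for the alpha ring, -0.34 for the beta ring, -0.30 for the ATPases, -0.02 for the other base subunits, -0.19 for the lid, -0.84 for the assembly factors and -0.04 for the activators. The core had a median of -0.39 with 0 of 14 called by edgeR (1 at an unadjusted p below 0.05, 1 by DESeq2, which was Psma7, and 0 by limma), and the regulatory particle -0.22 with 1 higher and 2 lower of 17. The groups did not overlap for 9 of 38 members, 4 higher (Psmc1, Psmd2, Psmd3 and Psme4) and 5 lower (Psmc6, Psmd5, Psmd8, Psmd10 and Psmd14), against 45.7% of all genes tested (22.3% higher and 23.4% lower). None of the 9 was a core gene.

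**Figure D4:**
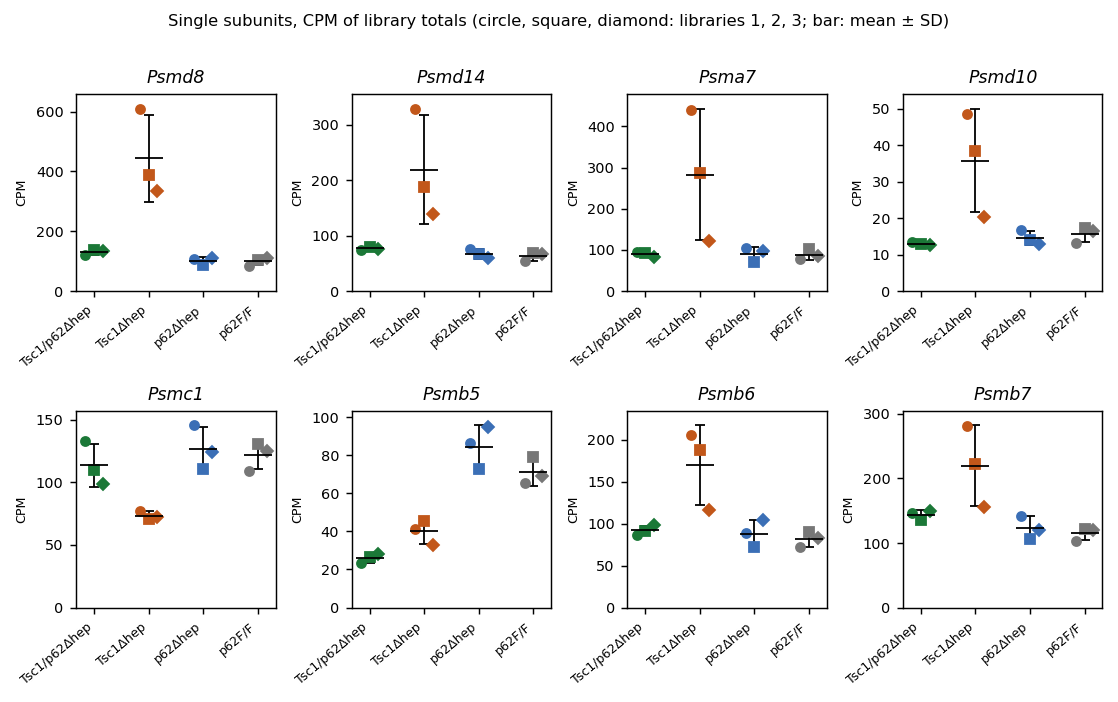
CPM of library totals of 8 proteasome genes in each library (circle, square and diamond are libraries 1, 2 and 3; bar and whiskers are mean ± SD of 3). Psmd8, Psmd14, Psma7 and Psmd10 are high and spread out in Tsc1Δhep, Psmc1 is lowest in Tsc1Δhep, and Psmb5 is low in both groups without Tsc1.

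The Tsc1Δhep libraries differed from each other more than those of any other group did. After TMM scaling the median coefficient of variation of 38 members was 6.05% in Tsc1/p62Δhep, 34.0% in Tsc1Δhep, 7.48% in p62Δhep and 4.215% in p62F/F, and that of all genes tested was 14.9%, 31.3%, 15.8% and 12.9% in the same order of groups. Of the 38 members 28 were highest in Tsc1Δhep library 1 and 31 lowest in library 3, where 39% and 39.9% of all genes were. The sum of members on this scale was 3990, 4050 and 3966 CPM in Tsc1/p62Δhep and 6600, 4886 and 3730 CPM in Tsc1Δhep, so library 3 lay below and libraries 1 and 2 above the Tsc1/p62Δhep libraries. Without Tsc1Δhep library 3, 4 members were called higher and 13 lower (43.6% of members, with 45.3% of all genes called), among them Psma7 (edgeR adjusted p 0.00307), Psmb6 (0.0116) and Psmd10 (0.00265). Without Tsc1/p62Δhep library 1, 0 were called (background 8.51%). Without library 2 of that group Psma8 alone was called (9.05%), and without library 3 Psmc1 alone (14.5%).

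Markers of other cell types also differed between these libraries, not all in the same order. The 5 cholangiocyte markers summed to 89.5, 75.1 and 114 CPM of library totals in Tsc1/p62Δhep and to 5561, 2467 and 918 CPM in Tsc1Δhep, in the same order of libraries as the proteasome sums of Tsc1Δhep, and 2 of the 5 passed the test as lower in Tsc1/p62Δhep. The 4 proliferation genes summed to 2.53 to 7.97 CPM in Tsc1/p62Δhep and 38.4 to 62.2 CPM in Tsc1Δhep, with 3 of 4 called lower, and 6 macrophage markers to 85.0 to 98.3 CPM in Tsc1/p62Δhep and 257 to 394 CPM in Tsc1Δhep, with 3 of 6 called lower. The macrophage sum was highest in Tsc1Δhep library 2. Stellate markers summed to 153 to 199.8 CPM in Tsc1/p62Δhep and to 56.4, 307 and 352 CPM in Tsc1Δhep libraries 1, 2 and 3 (3 of 7 lower), and endothelial markers to 88.2 to 118 CPM in Tsc1/p62Δhep and to 28.4, 73.6 and 179.6 CPM in Tsc1Δhep (1 of 5 lower). Both ran opposite to the proteasome sums of Tsc1Δhep. The neutrophil markers summed to 0.253 to 0.674 CPM in Tsc1/p62Δhep and 1.95 to 11.4 CPM in Tsc1Δhep (2 of 2 tested lower). Of 6 hepatocyte markers 4 were called higher in Tsc1/p62Δhep. No marker of these lists was at 0 in all libraries of either group. The part of these cells in the proteasome levels was not tested.

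Scaling also moved the counts. With library totals in place of TMM, 1 member was called higher and 13 lower (36.8% of members, with 31% of all genes called), with a members' median of -0.62, while the median of all genes moved from -0.05 to -0.40. The members are short transcripts, with a median length of 1468 bases against 2670 for all genes tested, and over all genes the log2 fold change rose with length (Spearman's rho 0.21 over genes, which are not independent replicates; 0.29 over the 38 members). With the dependence of each library on GC content and length removed, a choice made after seeing the data, limma called 4 members higher (Psma3, Psma6, Psmc1 and Psmd3) and 4 lower (Psmc6, Psmd8, Psmd10 and Psmd14), 21.1% of members with 33.8% of all genes called. The members' median was then 0.03 and that of all genes 0.08. Psmd8 kept a log2 fold change of -1.13 (limma adjusted p 0.00840), Psmd14 of -0.79 (0.0188) and Psmc1 of 1.16 (0.00288).

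**Figure D5:**
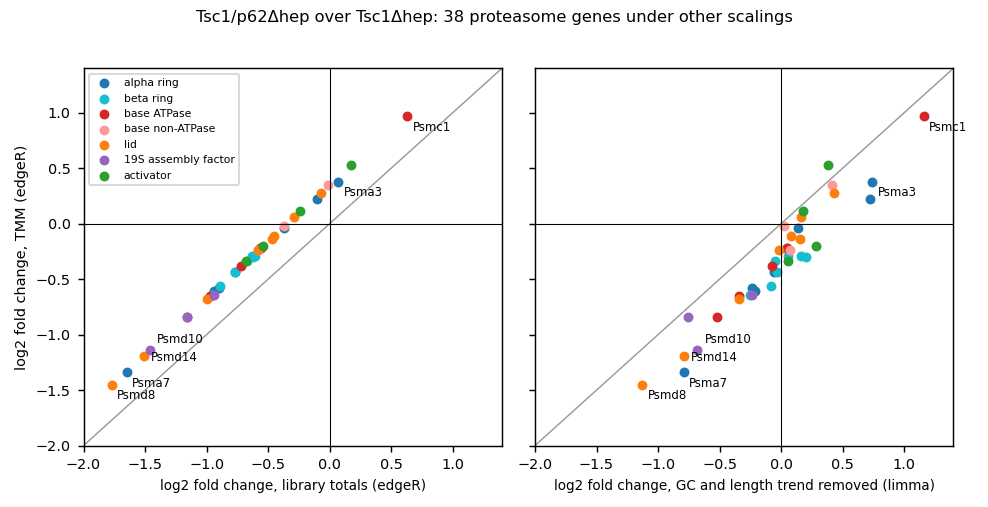
Log2 fold change of 38 proteasome genes for Tsc1/p62Δhep over Tsc1Δhep with TMM scaling (vertical axis) against that with library totals (left) and with each library's GC and length trend removed (right); the diagonal marks equal values and colours mark classes. Library totals shift all points towards negative values (median -0.62), and removal of the trend brings the median to 0.03 while Psmd8 stays lowest and Psmc1 highest.

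Psma8, the alpha ring subunit of the testis, was counted at 22, 6 and 45 reads in the Tsc1/p62Δhep libraries and at 1, 10 and 5 in Tsc1Δhep, too few to pass the filter on low counts in that table. It was counted at 31, 17 and 49 reads in p62Δhep and at 45, 106 and 43 in p62F/F. It is a close paralog of Psma7, and reads shared between them could have been assigned to either, so its values are uncertain.

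The comparison of p62Δhep with p62F/F asked what loss of p62 did while Tsc1 was intact. Most proteasome genes stood slightly higher in p62Δhep, but none passed the test singly, and the genes were not tested as a set. Of 39 members 34 had positive and 5 negative log2 fold changes, with a median of 0.10 (all genes 0.00), and all but Psma8 lay between -0.12 and 0.27. By edgeR 0 of 39 passed, where 0.0159% of all genes tested did, all of them lower. DESeq2 (1.36% of all genes called) and limma (0.0318%) called 0 as well, and Psma8 alone had an unadjusted p below 0.05. The sum of members after TMM scaling was 3597, 3484 and 3770 CPM in p62Δhep and 3317, 3361 and 3415 CPM in p62F/F, without overlap. The groups did not overlap for 9 members that were higher (Psma1, Psma3, Psmb5, Psmc2, Psmc5, Psmd2, Psmd4, Psmd6 and Psmd12) and for Psma8, which was lower, 10 of 39 against 12.8% of all genes (6.17% higher and 6.65% lower). Macrophage markers summed to 442 to 631 CPM of library totals in p62Δhep and 334 to 429.5 CPM in p62F/F, without overlap, and cholangiocyte markers to 76.4 to 444 CPM in p62Δhep and 182 to 459 CPM in p62F/F; their part in the proteasome levels was not tested.

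The catalytic subunit gene Psmb5 had the largest positive value. It stood at 79.8, 77.7 and 98.2 CPM in p62Δhep and at 70.7, 73.6 and 67.6 CPM in p62F/F (log2 fold change 0.27 ± 0.13 SE, edgeR adjusted p 0.648). Psmb6 had 0.14 ± 0.15 (adjusted p 0.849) and Psmb7 0.12 ± 0.12 (adjusted p 0.832), and their groups overlapped. The ATPase gene Psmc2 stood at 99.5, 101 and 109 CPM in p62Δhep and at 85.85, 85.48 and 91.68 CPM in p62F/F (0.24 ± 0.11, adjusted p 0.644). Psmd4, a ubiquitin receptor of the base, stood at 103, 100.2 and 119 CPM in p62Δhep and at 93.4, 95.6 and 89.0 CPM in p62F/F (0.21 ± 0.12, adjusted p 0.697).

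In the lid, Psmd6 had 0.19 ± 0.11 (edgeR adjusted p 0.690), among the assembly factors Psmd9 had 0.16 ± 0.11 (0.749), and among the activators Psme1, a subunit of the interferon-inducible PA28, had -0.12 ± 0.15 (0.867). Psma8 had the smallest p of all members, at 1.56, 1.04 and 2.01 CPM in p62Δhep and 2.45, 4.75 and 2.33 CPM in p62F/F (log2 fold change -1.04 ± 0.39, edgeR adjusted p 0.568). These are levels of a few CPM, far below those of the other members. The SEs of the members had a median of 0.12 on the log2 scale here and of 0.28 for Tsc1/p62Δhep over Tsc1Δhep, so a difference of the same size had a wider error in the pair without Tsc1.

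Whether the effect of p62 loss differed between Tsc1 backgrounds was tested as the change in Tsc1/p62Δhep over Tsc1Δhep less the change in p62Δhep over p62F/F, in 1 model of 12 libraries. Of 39 members 2 were higher and 2 lower (edgeR adjusted p below 0.05), 10.3% in all, where 16.1% of all genes tested were called, 6.76% higher and 9.32% lower. Psmd8 differed by -1.49 ± 0.34 (SE, log2; adjusted p 0.0133), from -1.45 in the pair without Tsc1 and 0.04 in the pair with it. Psmd14 differed by -1.30 ± 0.39 (adjusted p 0.0428). Psmc1 differed by 0.88 ± 0.22 (adjusted p 0.0188). Psma8 differed by 4.09 ± 0.96 (adjusted p 0.0157), a value that depends on 1, 10 and 5 reads in Tsc1Δhep and was 1.70 with limma on log2(CPM + 1). The calls of Psmd8 and Psma8 held without each of the 12 libraries in turn, that of Psmc1 was lost without Tsc1/p62Δhep library 1 (0.0560) or p62Δhep library 2 (0.0504), and that of Psmd14 held only without Tsc1Δhep library 1 (0.0350) or 3 (0.00258) and was at 0.0562 to 0.0972 without the other 10 libraries in turn.

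The members' median difference was -0.45 and that of all genes -0.07. Library totals called 1 member higher and 16 lower (43.6%, with 21.2% of all genes called), and the Psmc1 value of 0.57 then had an adjusted p of 0.115. Without Tsc1Δhep library 3, 2 were called higher and 21 lower (59%, with 36.8% of all genes called). The 21 lower genes without that library held all 7 beta ring genes, so the number of core genes called depended on that library.

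Levels in Tsc1Δhep and p62F/F were set side by side as CPM of library totals, without a test, since genotype and table cannot be told apart. A single gene counted differently in the tables would also show as a difference in its levels across them. This was not tested, and it holds for every level compared across the tables, in the next paragraph as well. The groups did not overlap for 26 members that were higher in Tsc1Δhep and 4 that were lower, against 32.9% and 14.1% of 13036 genes, 47% in all. Psmd8 was at 444 ± 145 CPM in Tsc1Δhep and 99.8 ± 13.6 CPM in p62F/F, a ratio of 4.45. Psmd9, an assembly factor, had a ratio of 4.07, and of 2.25 without Tsc1Δhep library 1, where it stood at 212 CPM against 67.3 and 56.7 CPM in libraries 2 and 3. Psmd14 had a ratio of 3.48 and Psma7 one of 3.19. The 4 that were lower in Tsc1Δhep were Psmb5 (ratio 0.561), Psma3 (0.593), Psmc1 (0.604) and Psma8. Subunits that occupy equal places in the particle thus had unlike ratios, from below 1 for Psmc1 and Psmb5 to above 4 for Psmd8.

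In Tsc1/p62Δhep, 10 members lay above and 7 below all p62F/F libraries, against 17.4% and 30.1% of the 13036 genes, 47.5% in all. Psmb5 was at 23.24, 26.65 and 27.91 CPM in Tsc1/p62Δhep, 41.53, 45.48 and 32.99 CPM in Tsc1Δhep, 86.37, 72.63 and 94.92 CPM in p62Δhep and 65.5, 79.18 and 69.15 CPM in p62F/F. In the order of its levels on this scale Tsc1/p62Δhep was lowest, followed by Tsc1Δhep, while p62F/F and p62Δhep, the highest, overlapped. The first 2 did not overlap here but did after TMM scaling, where the difference did not pass the test, as given above. Psmc1 was at 114 ± 17.4 CPM in Tsc1/p62Δhep, 73.4 ± 3.49 CPM in Tsc1Δhep, 127 ± 17.7 CPM in p62Δhep and 121 ± 10.9 CPM in p62F/F (SD, n = 3 each), so that Tsc1Δhep alone stood apart. Over all 6 libraries without Tsc1 against all 6 with it, Psmc4, Psmd1, Psmd8, Psmd9 and Psme3 were higher and Psma3 and Psmb5 lower without overlap, 7 of 39 members against 12.7% of all genes (6.7% higher and 6.04% lower).

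Genes around the proteasome were read from a list of 37, of which 35 were tested in each pair. In p62Δhep against p62F/F 0 of 35 passed by edgeR, with 0 at an unadjusted p below 0.05 and 0 by DESeq2 or limma. The smallest p-values belonged to Ddi2, the protease that activates NRF1 (log2 fold change 0.32 ± 0.14 SE, adjusted p 0.619), Maff, a small MAF protein (-1.03 ± 0.45, adjusted p 0.619) and Vcp, the segregase that pulls ubiquitin-tagged proteins out of complexes (0.25 ± 0.13, adjusted p 0.669). In Tsc1/p62Δhep against Tsc1Δhep 5 rose and 3 fell, 8 of 35 with 24.2% of all genes called.

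Of 7 genes that act in the transcription of proteasome genes, 3 rose in Tsc1/p62Δhep by edgeR, where 9.25% of all genes did. Ddi2 stood at 55.2, 57.2 and 42.2 CPM in Tsc1/p62Δhep and at 10.4, 19.4 and 31.1 CPM in Tsc1Δhep (log2 fold change 1.34 ± 0.38 SE, edgeR adjusted p 0.0403). Ngly1, the glycanase that NRF1 needs for its activation, had 0.68 ± 0.20 (adjusted p 0.0444) and Mafg, a small MAF partner of NRF1 and NRF2, 0.92 ± 0.26 (adjusted p 0.0393). With library totals none of the 3 calls held: Ddi2 had 0.96 (adjusted p 0.118), Ngly1 0.34 (0.208) and Mafg 0.56 (0.181). The gene of NRF1 itself, Nfe2l1, stood at 166, 185 and 205 CPM in Tsc1/p62Δhep and at 201, 231 and 312 CPM in Tsc1Δhep and did not pass (-0.42 ± 0.24, adjusted p 0.228). Nfe2l2 had 0.02 with an adjusted p of 0.944, and its sign turned with the scaling. Unlike Mafg, the small MAF genes Mafk (-0.75 ± 0.30, edgeR adjusted p 0.1, without overlap) and Maff (-1.24 ± 0.54, adjusted p 0.128) had negative values and did not pass. The median log2 fold change of the 7 genes was 0.02.

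The immunoproteasome subunits Psmb8 and Psmb9, which interferon induces and which replace Psmb5 and Psmb6, fell. Psmb8 stood at 40.7, 35.5 and 31.1 CPM in Tsc1/p62Δhep and at 108, 103.5 and 62.4 CPM in Tsc1Δhep (log2 fold change -1.35 ± 0.27 SE, edgeR adjusted p 0.0112), and Psmb9 had -1.04 ± 0.26 (adjusted p 0.0275). The third immunoproteasome gene, Psmb10, did not pass (-0.37 ± 0.20, adjusted p 0.194). Psmb8 and Psmb9 are known to be strongly expressed in immune cells. The macrophage and neutrophil markers given above moved the same way. T and NK markers did too (0.5294 to 1.076 CPM in Tsc1/p62Δhep, 1.143 to 4.165 CPM in Tsc1Δhep). B and plasma cell markers did not (7.412 to 17.6 CPM in Tsc1/p62Δhep, 4.231 to 11.95 CPM in Tsc1Δhep). In p62Δhep the macrophage markers lay above those of p62F/F without overlap. There Psmb8, Psmb9 and Psmb10 had log2 fold changes of -0.04, -0.08 and -0.08 and did not pass. The part of these cells was not tested. Of the shuttle and segregase genes, Ubqln1 rose in Tsc1/p62Δhep over Tsc1Δhep (0.97 ± 0.28, edgeR adjusted p 0.0399). With library totals Ubqln1 had 0.60 (adjusted p 0.176). Ubqln2 fell in Tsc1/p62Δhep (-1.45 ± 0.44, edgeR adjusted p 0.0493). Ubqln2 stood at 32.6, 33.8 and 31.7 CPM in Tsc1/p62Δhep and at 161, 49.6 and 58.6 CPM in Tsc1Δhep, and its log2 fold change was -0.72 without Tsc1Δhep library 1. Its call was lost with the size factors of DESeq2 in edgeR (0.0505), with limma (0.0667) and with the GC and length trend removed (0.0717). Of the core assembly genes 0 of 5 passed by edgeR, with 0 at an unadjusted p below 0.05 and 0 by DESeq2 or limma. Of the ubiquitin genes 0 of 4 passed by edgeR, with 1 at an unadjusted p below 0.05, 1 by DESeq2 and 0 by limma. Among these 4, Ubb was near the floor in both groups. It stood at 0.989, 1.31 and 1.04 CPM in Tsc1/p62Δhep and at 0.693, 1.25 and 0.751 CPM in Tsc1Δhep. In the other pair the mean of Ubb was 113 CPM in p62Δhep and 123 CPM in p62F/F. As CPM of library totals, Ubb stood at 0.736 to 1.38 in the libraries without Tsc1 and at 85.6 to 146 in those with it. Tsc1 genotype and table cannot be told apart in this, and whether Ubb was counted differently in the tables was not tested. The difference between Tsc1 backgrounds passed for, among others, Psmb8 (-1.32 ± 0.30, adjusted p 0.0149), Ngly1 (0.78 ± 0.21, adjusted p 0.0268) and Mafg (1.00 ± 0.30, adjusted p 0.0412).

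Each of the 7 calls named here for Tsc1/p62Δhep against Tsc1Δhep was lost in at least 1 fit without a library. Without Tsc1/p62Δhep library 2, 0 of the 7 passed (edgeR adjusted p 0.0624 to 0.153), and without library 3 of that group 0 did (0.0508 to 0.133). Without library 1 Psmb8 alone of the 7 passed (0.0496). Without Tsc1Δhep library 1 Mafg (0.0561) and Ubqln1 (0.0648) were lost, and without Tsc1Δhep library 2 only Psmb8 (0.0446) and Ubqln2 (0.0430) held. All 7 held without Tsc1Δhep library 3 (0.00191 to 0.0278).

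Some members share exons with an annotated neighbour, and the sources used here do not say whether counting used strand, so reads of the 2 genes may not be told apart. On GRCm38 these are Psma4, Psma5, Psmb7, Psmc3, Psmd3, Psmd13 and Psme1, each with a gene on the opposite strand, Psmd1 with a predicted gene on its own strand and Psmb5 with a microRNA. Psmd8 (chr7:29174188-29180701, minus strand), Psmd14 (chr2:61711694-61800376, plus) and Psmc1 (chr12:100110154-100123405, plus) share no exon with another annotated gene.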

How the data were processed

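The 2 deposited files were tables of whole-number read counts per gene made by the authors, 6 libraries in each, and the deposited counts differ in their totals and carry no normalization. The sources used here name no aligner, counting tool or use of strand. Per the submitters' processing notes the build was hg19, a human one, although the symbols are those of mouse, so positions were taken from GENCODE and RefSeq on GRCm38. Per the labels' protocols, poly(A) libraries were made with a directional kit and sequenced single-end or paired-end on 2 instruments, without saying which library on which, so the instrument cannot be told apart from the groups. Samples were grouped and numbered by their titles. In each of the tables, 27 gene names had been turned into dates, holding 0.143% to 0.31% of the counts of a library, and they stayed in the tests.

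Each pair of groups was fitted within its own table over all genes that passed filterByExpr (at least 10 counts in 3 libraries at the median library size, 15 in total), with TMM scaling and the quasi-likelihood test (glmQLFTest) of edgeR 4.0.16 in R 4.3.3. The difference of effects was the interaction contrast of 1 model with 12 libraries. P-values were adjusted over all genes tested, by Benjamini and Hochberg, with a threshold of 0.05. SEs were derived as the log2 fold change over the square root of F. Alternatives used DESeq2 1.42.0, limma 3.58.1 on log2(CPM + 1), other scalings, no filter, all 12 libraries, a replicate term and each library left out. One more, added after seeing the data, removed from log2(CPM + 1) the trend of each library with GC content and length (natural splines with 4 degrees of freedom; 98.4% of genes had both values). The scripts were tested on simulated counts.

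Full values are given for the catalytic subunits, the member with the smallest p in each class, the 3 smallest of all, called members that went against the rest and, for the difference of effects, the members with the smallest p. Psma3, Psmc6, Psmd3, Psmd5 and others beyond this rule were named after their values were seen. The members, the gene lists and the tests were chosen with earlier results of these data known. Levels across the tables are CPM of library totals and were not tested. Counting error is small at these depths, of 15792048 to 33377247 counts, except for Psma8. One gene of the list around the proteasome is counted in its totals and not reported here.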

Additional observations from a re-analysis of the deposited data

Results flagged for a closer look

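The effect of p62 loss differed between the Tsc1 backgrounds for 4 proteasome genes by the interaction test (edgeR), with the change in Tsc1/p62Δhep over Tsc1Δhep less that in p62Δhep over p62F/F as the quantity. These were 10.3% of the 39 members, where 16.1% of all genes were called, and with the replicate number as a block 0 of the 4 passed. On the log2 scale the difference was -1.49 for Psmd8 (adjusted p 0.0133, range over alternatives and left-out libraries 0.000609 to 0.0626) and -1.30 for Psmd14 (adjusted p 0.0428, range 0.00258 to 0.116). It was 0.88 for Psmc1 (adjusted p 0.0188, range 0.000501 to 0.115) and 4.09 for Psma8 (adjusted p 0.0157, range 0.000419 to 0.0753). For Psmd8, Psmd14 and Psmc1 the 3 values of Tsc1/p62Δhep and the 3 of Tsc1Δhep did not overlap, and Psma8 rests on 1 to 10 reads per library in Tsc1Δhep.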

How the results depend on the processing

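For p62Δhep over p62F/F, 0 members were called under every alternative tried. For Tsc1/p62Δhep over Tsc1Δhep the 1 higher and 2 lower members became 1 and 5 with DESeq2 (32.9% of all genes called), 1 and 1 with its size factors in edgeR (24.1%), 1 and 1 with limma (24.9%), 3 and 7 in 1 fit of all 12 libraries (39.3%), 2 and 1 with no filter (17.7%), and 1 and 13 with library totals (31%; median -0.62). With the GC and length trend removed they were 4 and 4 (33.8%; median 0.03). Without each library in turn, 0 to 4 were higher and 0 to 13 lower. For the difference of effects, the 2 higher and 2 lower became 1 and 16 with library totals (21.2% of all genes; median -0.77), 2 and 1 with limma (17%), and 2 and 4 with the trend removed (22.8%; median -0.14), 1 was higher among members with a mean of at least 100 counts, and without each library in turn 1 to 2 were higher and 1 to 21 lower, with medians of -0.60 to -0.26. The cause was not tested.

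Whether the replicate numbers pair the samples is not stated, and 3 libraries per group are too few to settle it. The deviations of same-numbered libraries had correlations of -0.393, -0.471 and 0.0395 in p62Δhep and p62F/F and of -0.0714, -0.0713 and -0.112 in Tsc1/p62Δhep and Tsc1Δhep. For libraries of unlike number they ran from -0.145 to 0.502 in the former groups and from -0.0425 to 0.103 in the latter. With the number as a replicate block, 1 member was higher and 1 lower in Tsc1/p62Δhep over Tsc1Δhep, where Psmd14 had an adjusted p of 0.103, and 0 and 0 for the difference.

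In Tsc1/p62Δhep over Tsc1Δhep, 12 of 38 members changed sign with the trend removed and 5 with library totals. Of the genes given with full values these did. With the trend removed, Psmb5 had 0.16 and Psmb7 0.06 in Tsc1/p62Δhep over Tsc1Δhep, and Psmd2 had -0.01 with library totals. In p62Δhep over p62F/F, leaving out each library in turn gave -0.03 to 0.23 for Psmb6, -0.10 to 0.20 for Tsc1 and -0.21 to 0.07 for Nfe2l2, which had 0.01 with the trend removed. In Tsc1/p62Δhep over Tsc1Δhep Nfe2l2 had -0.04 to 0.11 without each library in turn and -0.33 with library totals, and for the difference -0.05 to 0.22 and -0.26. Depth limited the values of Psma8, with 1 to 10 reads per library in Tsc1Δhep.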
